A study of Mus musculus with 10 samples.

Results

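The 4 libraries of mouse 8-cell embryos that lack Tfap2c motifs in the genome were set as 1 side against the 2 control libraries of the same deposited table. They were chosen by their labels, and make up, with the control, 6 of the 10 libraries and 3 of the 5 groups of the series. The first knockout, Arpc1bE_CdxE1_KO (2 libraries), is named for an element of Arpc1b and a first element of Cdx2. The second, CdxE2_KO (2 libraries), is named for a second element of Cdx2. Both carry the treatment label of a Tfap2c motif knockout, and Ctrl (2 libraries) that of a control. All 3 groups are BDF1 embryos at the 8-cell stage, from which zona and polar bodies had been taken off. Total RNA was primed at random. How the motifs were deleted, what the control embryos received, how many embryos went into a library and whether the libraries of a group came from separate embryo pools are not given in the sources used here. The p-values therefore measure the spread between these libraries, which may be technical. The question was which transcripts moved together in all 4 knockout libraries.

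Tfap2c belongs to the AP-2 transcription factors, which bind GC-rich palindromes as dimers. Around the time of compaction the blastomeres of the mouse embryo begin to differ in polarity and in Hippo signalling. Outer cells then raise Cdx2, a homeobox factor of the trophectoderm, while inner cells keep pluripotency factors such as Oct4 (Pou5f1) and Nanog. Arpc1b is part of the Arp2/3 complex, on which new actin filaments branch from old ones.

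The level of a gene is given here as the deposited log2(value + 1), with each library set to its median over 10920 tested genes, those at 1 or more linear units in at least 2 of the 6 libraries. Each difference is the mean of the 4 knockout libraries minus that of the 2 Ctrl libraries on that log2 scale, which understates the change of low genes. A gene was called at a limma adjusted p under 0.05.

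The 4 knockout libraries stood apart from the Ctrl libraries in measures that span the whole library. Their linear values added up to 478651 to 498621 units, against 389715 and 390386 in Ctrl and 388454 to 395401 in the knockdown libraries. Small RNA genes held 2.7% to 3.49% of that sum in the knockout libraries and 1.05% to 1.12% in the knockdown libraries, against 0.94% and 1.02% in Ctrl. Of the 24421 genes listed, 30.6% to 34.5% were at 0 in knockout libraries and 28.4% to 31.7% in the knockdown libraries, which overlap them, against 26.0% and 27.4% in Ctrl. The smallest value above 0 was 0.000349 to 0.000881 units in knockout libraries, against 8.8e-07 and 2.36e-06 in Ctrl. It was 9.98e-08 to 1.91e-06 in the knockdown libraries. In the linear sum, the small RNA share and this smallest value the knockout libraries thus stood apart from all other libraries of the series. All knockout libraries are on 1 side of Ctrl in these measures, so genotype and the making or processing of the libraries cannot be told apart. Without the centring the median difference of all tested genes was 0.28, and with it -0.04. Markers of the 8-cell embryo were present, with 12 of 12 tested and a summed level of 2207 to 2380 units in knockout libraries and 2066 to 2069 in Ctrl. These and the marker sums below are deposited linear values without centring, and the sums of whole libraries were also larger in the knockouts. With the centring the 12 embryo markers had a median difference of -0.22, with 0 called higher and 2 lower. Among markers of other cells, 13 of 16 for cumulus and granulosa cells were under 1 unit in all 6 libraries. So were 12 of 14 for spermatids, 9 of 11 for blood, 10 of 11 for stroma and 6 of 8 for oviduct epithelium. The summed levels in units were 7.38 to 8.93 in knockout libraries and 4.74 to 6.12 in Ctrl for cumulus and granulosa cells. Spermatid markers summed to 19.06 to 24.78 in knockout libraries and 11.7 to 15.15 in Ctrl, and blood markers to 1.21 to 2.45 in knockout libraries and 1.36 to 2.15 in Ctrl. Stroma markers summed to 4.55 to 6.41 in knockout libraries and 4.18 to 4.32 in Ctrl, and oviduct markers to 16.79 to 19.93 in knockout libraries and 10.16 to 11.84 in Ctrl.

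Cdx2 (chromosome 5, 147300805 to 147307270, minus strand, mm10) was low in all 4 knockout libraries. Its centred level was 0.65 and 1.44 in Arpc1bE_CdxE1_KO and 0.71 and 0.81 in CdxE2_KO, against 2.56 and 2.70 in Ctrl. The groups did not overlap, and the pooled difference was -1.73 (SE 0.23, adjusted p = 0.00755). The difference was -1.59 in Arpc1bE_CdxE1_KO and -1.87 in CdxE2_KO, and these did not differ detectably from each other (-0.29, SE 0.26, adjusted p = 0.676). In deposited units Cdx2 stood at 0.77 to 1.53 in the knockout libraries, at 1.15 and 1.23 in the Klf5 knockdown, at 0.23 and 0.57 in the Tfap2c knockdown and at 2.35 and 2.48 in Ctrl. The call was lost without Ctrl replicate 1 (adjusted p = 0.0806) and without Ctrl replicate 2 (0.116).

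Arpc1b (chromosome 5, 145114215 to 145130705, plus strand) fell in 1 of the knockouts, so it was no shared change. Its level was 3.15 and 3.22 in Arpc1bE_CdxE1_KO and 4.73 and 4.54 in CdxE2_KO, against 4.92 and 4.70 in Ctrl. The Arpc1bE_CdxE1_KO libraries lay below all the others, and CdxE2_KO overlapped Ctrl. Arpc1b fell by 1.63 in Arpc1bE_CdxE1_KO (adjusted p = 0.000904), and the difference was -0.17 in CdxE2_KO (adjusted p = 0.42) and -0.90 over the pooled libraries (adjusted p = 0.271). Its end overlaps Pdap1 on the other strand, and whether strand was used in counting is not given in the sources used here. Klf5, a zinc finger factor of both early lineages, fell a little, with 6.86 and 7.04 in Arpc1bE_CdxE1_KO and 7.01 and 6.84 in CdxE2_KO, against 7.41 and 7.36 in Ctrl (-0.44, SE 0.09, adjusted p = 0.0323). Tfap2c itself stood at 6.36 to 6.58 in the knockout libraries, against 6.82 and 6.84 in Ctrl, a difference of -0.37 that just missed the threshold (adjusted p = 0.0519). In deposited units, without centring, Tfap2c was at 6.48 to 6.66 in the knockout libraries and at 6.61 in both Ctrl libraries, with overlap. As deposited, without centring, the difference of Klf5 was -0.12 and was not called (adjusted p = 0.3). Klf5 also lost its call without each of the CdxE2_KO and Ctrl libraries, with adjusted p from 0.0678 to 0.239.

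**Figure D1:**
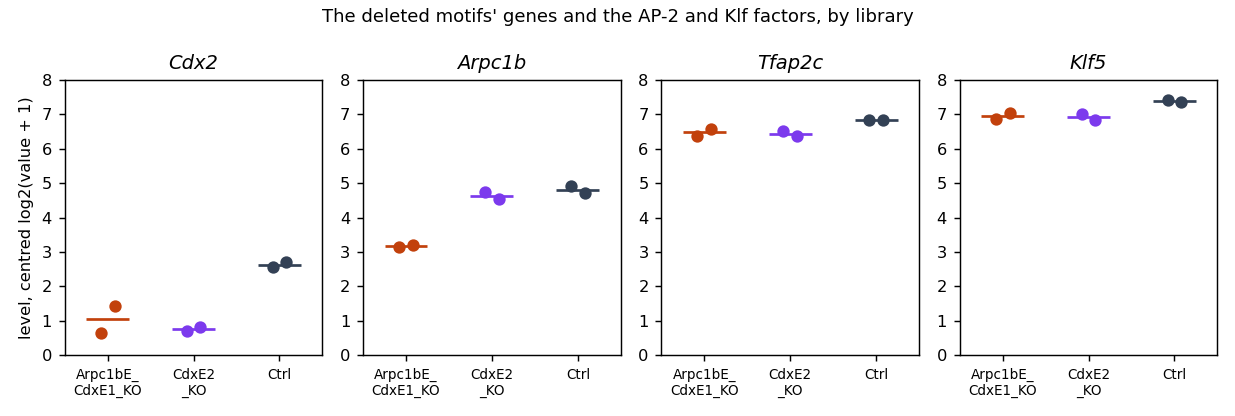
Level of Cdx2, Arpc1b, Tfap2c and Klf5 in each library, as centred log2(value + 1), with points for libraries and lines for the mean of 2. Cdx2 lies at 0.65 to 1.44 in the 4 knockout libraries and at 2.56 and 2.70 in Ctrl, while Arpc1b is low in Arpc1bE_CdxE1_KO alone among these 3 groups.

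The deleted elements are labelled as motifs of an AP-2 factor and named for these genes, but their positions are not given in the sources used here. The promoters of both genes are shown, from 250 bases before to 50 bases after the RefSeq start (GRCm38.p6). Capitals mark the only match to GCCNNNGGC, an AP-2 consensus and a palindrome that reads alike on both strands. Forms with a spacer of another length were not searched for, so a window with 0 matches may still hold an AP-2 site. The Cdx2 window, chr5:147307200-147307499 on the minus strand, holds 1 match, in the bases just before the start, and the Arpc1b window, chr5:145114006-145114305 on the plus strand, holds 0.
Cdx2: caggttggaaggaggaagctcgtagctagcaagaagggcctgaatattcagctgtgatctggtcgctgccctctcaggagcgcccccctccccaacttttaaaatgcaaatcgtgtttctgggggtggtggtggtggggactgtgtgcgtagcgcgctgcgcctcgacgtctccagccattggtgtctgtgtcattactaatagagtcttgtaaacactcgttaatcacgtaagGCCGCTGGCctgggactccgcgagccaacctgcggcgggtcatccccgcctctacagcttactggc
Arpc1b: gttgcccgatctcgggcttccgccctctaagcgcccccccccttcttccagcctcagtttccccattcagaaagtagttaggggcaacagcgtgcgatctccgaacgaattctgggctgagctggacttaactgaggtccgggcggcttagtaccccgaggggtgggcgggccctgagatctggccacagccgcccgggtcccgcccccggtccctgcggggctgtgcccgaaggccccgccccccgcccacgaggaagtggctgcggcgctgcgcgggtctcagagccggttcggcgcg
Whether the marked match is one of the deleted motifs is not given in the sources used here. Across genes the consensus was in at least 1 promoter window of 62 of 221 genes called lower (28.1%) and 27 of 119 called higher (22.7%). Of all tested genes with a window, 2342 of 8066 had it in at least 1 (29.0%). Counted by window rather than by gene, 5450 of 32851 windows held it (16.6%), a share not comparable with those of genes.

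In all, 548 of 10920 genes were called (5.02%), 245 higher (2.24%) and 303 lower (2.77%) in the pooled knockouts. In each of the 548 the 4 knockout libraries lay on 1 side of both Ctrl libraries, and such genes are named shared here. A pooled call largely entails this, so it is no separate evidence of sharing. Some called genes passed in neither knockout alone, such as Nanog (limma adjusted p = 0.0597 in Arpc1bE_CdxE1_KO and 0.0741 in CdxE2_KO). Called or not, 1552 of the 10920 genes lay above and 2403 below in all 4. The smallest called difference was 0.33, and 95 genes (0.87%) were called with at least a 2-fold difference in each knockout, 70 higher and 25 lower. The split of higher and lower calls moved with the scaling. It was 3192 higher and 92 lower as deposited, and 304 and 255 with library sums made equal. The count was 984 without Arpc1bE_CdxE1_KO replicate 1, 418 without its replicate 2, 239 without CdxE2_KO replicate 1, 298 without its replicate 2, 87 without Ctrl replicate 1 and 76 without Ctrl replicate 2. Of 77 named genes called, 19 kept the call in all 6 of these fits. They are Amd1, Bbc3, Cnbp, Eif3j1, Fam134c, Lars2, Mapk6, Mdm4, Oaz1, Plk2, Rnu11, Rnu12, Rpl26, Tgoln1, Tgoln2, Tmem38b, Trmt61b, Vaultrc5 and Wdr89. Each of the other 58 lost it without Ctrl replicate 1, Ctrl replicate 2 or both.

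The called genes fell into classes of unequal size. Genes with no close match elsewhere in the GENCODE M21 transcripts made up most of the calls, 118 higher and 237 lower of 8777 tested (4.04%), but held 5 of the 70 higher and 11 of the 25 lower genes of at least 2-fold. Of 1417 genes that share a stretch of at least 95% identity with another gene, or overlap one, 49 were higher and 48 lower (6.85%). Of 326 small RNA genes, 67 were higher and 4 lower (21.8%), and 53 of them were among the 70 higher genes of at least 2-fold. With close matches and small RNAs left out of the fit, 17 genes of at least 2-fold were called, 7 higher and 10 lower. The knockout libraries lay beyond the 4 knockdown libraries too in 163 of the 245 higher genes (66.5%) and in 170 of the 303 lower genes (56.1%). This held for 65 of the 70 higher and 21 of the 25 lower genes of at least 2-fold. The knockdown libraries stand in other tables, which may have been scaled apart. The same share over all tested genes was not computed, so these counts do not set the called genes apart from the rest.

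**Figure D2:**
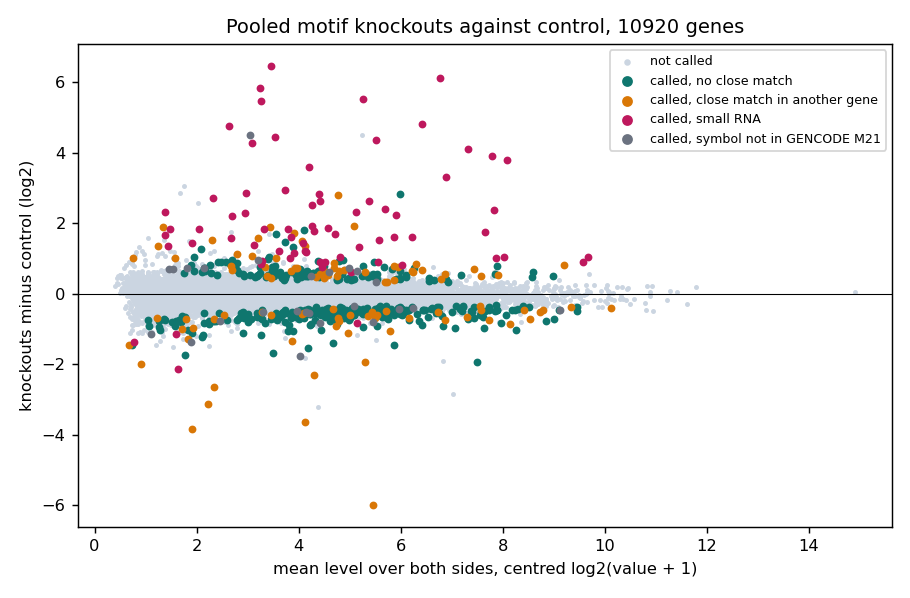
Difference of the 4 knockout libraries from the 2 Ctrl libraries (log2, y axis) against the mean level of both sides (centred log2(value + 1), x axis) for 10920 genes, 1 point a gene, with called genes coloured by class. Small RNAs hold most of the largest rises, and the called genes with no close match lie mostly within about a 2-fold change.

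Among the named genes of at least 10 units, several of the largest falls were in genes with a close match or an overlapping gene. In some of these pairs, though not in all, the partner was higher in every knockout library. Partner levels below are linear values without centring. Rpl26, a protein of the large ribosomal subunit (chromosome 11, 68901583 to 68906989), stood at 2.80, 2.40, 2.45 and 2.25 in the knockout libraries, against 8.41 and 8.51 in Ctrl (-5.98, adjusted p = 3.88e-07). Its close match Gm15772 was at 750.0 to 1075 linear units in knockout libraries and at 377 and 382 in Ctrl, and the sum of the pair differed by -0.01 with overlapping groups. Amd1, which makes decarboxylated S-adenosylmethionine for polyamines, fell by 3.83 (adjusted p = 6.9e-05), and its sum with Amd2 differed by 0.03, again with overlap. Amd2 was at 105, 158, 177 and 168 units in the knockout libraries, against 101 and 108 in Ctrl, so 1 knockout library lay between the Ctrl libraries. Snurf, which lies within the Snrpn transcript, fell by 3.13, and the sum of both differed by -0.25 without overlap. Snrpn was at 35.0 to 39.2 units in the knockout libraries, against 28.8 and 19.5 in Ctrl.

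In other pairs the sum differed by more. Oaz1, the antizyme that restrains polyamine synthesis, fell by 3.63 (adjusted p = 0.0025), and its sum with Oaz1-ps differed by -1.03. Eif3j1, a subunit of an initiation factor of translation, fell by 2.64 (adjusted p = 0.000118), while its sum with Eif3j2 differed by 0.41. Tgoln1 and Tgoln2 are both named for a membrane protein of the trans-Golgi network. Tgoln1 stood at 3.71, 3.40, 3.46 and 3.12 in knockout libraries, against 4.95 and 4.98 in Ctrl (-1.54, adjusted p = 0.00162). Tgoln2, a symbol with no transcript in GENCODE M21, stood at 5.20 to 5.42 in knockout libraries, against 0.80 and 0.78 in Ctrl (4.49, adjusted p = 3.88e-07), and the sum of both differed by 0.63. Rsc1a1, a regulator of sugar transport, rose by 1.92 and its sum with Ddi2 differed by 0.88. Its level was 6.77 and 6.58 in Arpc1bE_CdxE1_KO and 5.49 and 5.37 in CdxE2_KO, against 3.78 and 4.49 in Ctrl. Dpm1, a subunit of the dolichol-phosphate mannose synthase, rose by 1.36 and its sum with Dpm1-adnp differed by -0.36 with overlap. Hnrnpa3, an RNA-binding protein, fell by 2.30, and among histone genes, which are near-identical to each other, Hist1h2ad rose by 1.90 and Hist2h2aa2 by 1.72. Without a library the highest adjusted p was 0.271 for Rsc1a1, 0.252 for Dpm1, 0.165 for Hnrnpa3, 0.311 for Snurf, 0.0535 for Hist1h2ad and 0.0592 for Hist2h2aa2.

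Large shared changes were also present in genes with no close match found among GENCODE M21 transcripts, and in Fam134c, which could not be searched for one. Lars2, the first of them, has a ribosomal RNA-like sequence all the same, as described with the structural RNAs below. Lars2, the leucyl-tRNA synthetase of mitochondria (chromosome 9, 123366927 to 123462666), stood at 7.43, 7.54, 7.31 and 7.33 in knockout libraries, against 4.58 and 4.58 in Ctrl (2.83, SE 0.09, adjusted p = 1.32e-06). In deposited units the 4 knockdown libraries had 4.42 to 4.65, near the 4.36 of both Ctrl libraries. Tmem38b, a cation channel of the endoplasmic reticulum, rose by 1.82 (adjusted p = 0.00035). Sdc4, a cell surface proteoglycan, rose by 1.46 (0.00942) and Xaf1, a pro-apoptotic zinc finger protein, by 1.32 (0.00287). Cnbp, a nucleic acid-binding zinc finger protein (chromosome 6, 87842615 to 87851106), stood at 6.86, 6.54, 6.44 and 6.26 in knockout libraries, against 8.48 and 8.44 in Ctrl (-1.94, adjusted p = 0.00035). Fam134c, a receptor for autophagy of the endoplasmic reticulum and a symbol with no transcript in GENCODE M21, fell by 1.77 (6.9e-05). Wdr89, a WD-repeat protein, fell by 1.67 (0.00135). Mapk6, an atypical MAP kinase, fell by 1.45 (1e-04) and Trmt61b, a mitochondrial tRNA methyltransferase, by 1.39 (0.00133). In Lars2 and each of the genes after it in this paragraph the knockout libraries lay beyond all 4 knockdown libraries. Sdc4 lost its call without Ctrl replicate 2 (adjusted p = 0.067), as did Xaf1 (0.0508).

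Most H/ACA snoRNAs rose. These RNAs guide pseudouridylation of ribosomal RNA. Of 34 tested, 31 (91.2%) were called higher and 0 lower, with a median difference of 1.85, while 33 of 34 lay above Ctrl in all 4 knockout libraries. Over all tested genes 2.24% were called higher, and 1552 of 10920 lay above in all 4. The family was not singled out before its values were seen. Snora26 stood at 7.17, 6.45, 6.58 and 6.59 in knockout libraries, against 0.24 and 0.24 in Ctrl (6.46, adjusted p = 7.15e-07). Snora47 was at 8.32, 7.89, 8.04 and 7.84, against 2.59 and 2.41 in Ctrl (5.52, adjusted p = 3.88e-07). Snora26 was thus near 0 in Ctrl, and both were high in each knockout library. Snora7a, an abundant member, had the smallest called rise, with 6.47, 6.21, 6.53 and 6.57 in knockout libraries and 5.44 and 5.79 in Ctrl (0.83, adjusted p = 0.016).

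C/D snoRNAs, which guide 2'-O-methylation, moved less evenly, with 18 of 57 higher (31.6%), 0 lower and a median of 0.55. Snord15b, at 10.18, 9.82, 9.71 and 9.63 in knockout libraries and 3.57 and 3.83 in Ctrl, rose by 6.13 (adjusted p = 3.88e-07). Snord17, the most abundant in Ctrl of those called, rose by 1.06 (adjusted p = 0.0157). Of 8 Cajal body RNAs, which guide changes of spliceosomal RNA, 3 were higher (37.5%) and 0 lower. Scarna13 varied within groups, with 2.76 and 7.31 in Arpc1bE_CdxE1_KO and 2.81 and 9.60 in CdxE2_KO, against 8.48 and 8.42 in Ctrl (adjusted p = 0.38). Of 220 microRNA genes 10 were higher and 4 lower (6.36%), near the 5.02% of all tested genes called. The largest microRNA rise, 4.27 for Mir1291, is no separate observation, since Mir1291 overlaps Snora34, which rose by 4.43.

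The list of structural and polymerase III RNAs had 6 of 11 higher and 0 lower, beside 2.24% of all tested genes called higher. Rnu11, the U11 RNA of the minor spliceosome, stood at 9.47, 9.33, 9.43 and 9.30 in knockout libraries, against 4.98 and 5.56 in Ctrl (4.11, adjusted p = 3.01e-06). Its partner Rnu12, the U12 RNA, rose by 3.32 (adjusted p = 0.000512). Vaultrc5, a vault RNA, stood at 6.51, 6.03, 6.06 and 6.03, against 0.40 and 0.26 in Ctrl (5.83, adjusted p = 4.06e-07). Rmrp, the RNA of RNase MRP, rose by 1.04, Rprl3, a gene like the RNase P RNA, by 1.15, and Lars2, placed in the list because of its ribosomal RNA-like sequence, is given above. Long RNAs of the same list did not pass, with differences of 0.05 for Malat1, -0.02 for Neat1 and 0.06 for the ribosomal precursor Rn45s.

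The spliced host genes that carry many snoRNAs in their introns mostly did not pass the test. Of 17 host genes tested, 1 was called, Snhg3, at 3.74, 3.74, 3.62 and 3.66 in knockout libraries, against 3.26 and 3.23 in Ctrl (0.44, adjusted p = 0.0409), and the median was 0.09. As deposited 7 were higher. Gar1, a protein of the H/ACA particle, rose by 0.45 (adjusted p = 0.0465). In 59 of the 67 small RNAs that rose (88.1%) the knockout libraries lay above the 4 knockdown libraries as well, with no share over all tested genes computed beside it. Rnu11, for example, was at 9.41 to 9.60 deposited units in the knockout libraries and at 4.59 to 5.51 in the knockdown libraries, against 4.76 and 5.34 in Ctrl. The share of small RNAs in the library, given above, moves with the same split, and its part in these rises was not tested. Without Ctrl replicate 1 the count of H/ACA snoRNAs called higher was 23, and without Ctrl replicate 2 it was 24. The C/D count was 11 in both, and Snhg3 and Gar1 lost their calls without each library but Arpc1bE_CdxE1_KO replicate 1.

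**Figure D3:**
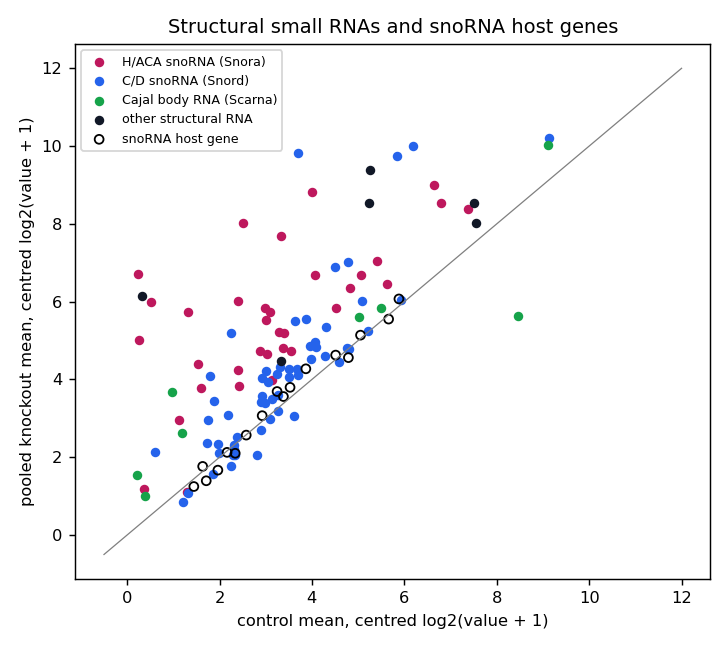
Mean level of structural small RNAs and snoRNA host genes in the 4 knockout libraries (y axis) against the 2 Ctrl libraries (x axis), as centred log2(value + 1), 1 point a gene, with the line of equality. H/ACA snoRNAs lie above the line with a median difference of 1.85, and the open circles of the host genes lie along it with a median of 0.09.

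Of 36 tested genes of the p53 response and of apoptosis, 9 rose and 1 fell, beside 2.24% and 2.77% of all tested genes. A positive difference was present in 30, and the median was 0.40 beside -0.04 over all tested genes. The median was 0.35 in Arpc1bE_CdxE1_KO and 0.42 in CdxE2_KO, which share the Ctrl libraries. Bbc3, the Bcl2-family killer Puma, stood at 4.39, 4.33, 4.35 and 4.52 in knockout libraries, against 2.23 and 3.18 in Ctrl (1.69, SE 0.23, adjusted p = 0.00708). The 4 knockout libraries were close to each other and the Ctrl libraries further apart. Plk2, a stress-induced polo-like kinase, was at 3.92, 3.83, 3.88 and 3.91, against 2.86 and 2.96 in Ctrl (0.97, adjusted p = 0.00141). Ccng1, cyclin G1, was at 4.41 and 4.13 in Arpc1bE_CdxE1_KO and 3.57 and 3.61 in CdxE2_KO, against 2.85 and 2.94 in Ctrl (1.04, adjusted p = 0.0465).

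Pmaip1, the killer Noxa, rose by 0.91, the stress sensor Gadd45b by 0.90 and the translesion polymerase Polk by 0.85. Trp53inp1 rose by 0.71, the death receptor Tnfrsf10b by 0.68 and Apaf1, which assembles the apoptosome, by 0.40. Mdm4, an inhibitor of p53 (chromosome 1, 132959484 to 133030561), was the gene called lower, with 6.48, 6.54, 6.63 and 6.66, against 7.55 and 7.55 in Ctrl (-0.97, SE 0.08, adjusted p = 0.000568). Cdkn1a, the cell cycle inhibitor p21, and Mdm2, the ligase that degrades p53, did not pass, with differences of 0.80 (adjusted p = 0.1) and 0.42 (0.118). In deposited units Plk2 was at 3.91 to 4.04 in the knockout libraries, 3.87 and 3.88 in the Tfap2c knockdown and 2.86 and 3.11 in the Klf5 knockdown, against 2.65 and 2.74 in Ctrl. Mdm4 was at 6.61 to 6.78 in knockout libraries and at 7.40 to 7.57 in the knockdown libraries, against 7.32 and 7.34 in Ctrl. Bbc3, Plk2 and Mdm4 kept their calls without each library. The count of higher genes was 25 as deposited, 5 without the variance trend or without Arpc1bE_CdxE1_KO replicate 2, and 2 without either Ctrl library, where the median was 0.37 to 0.39.

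**Figure D4:**
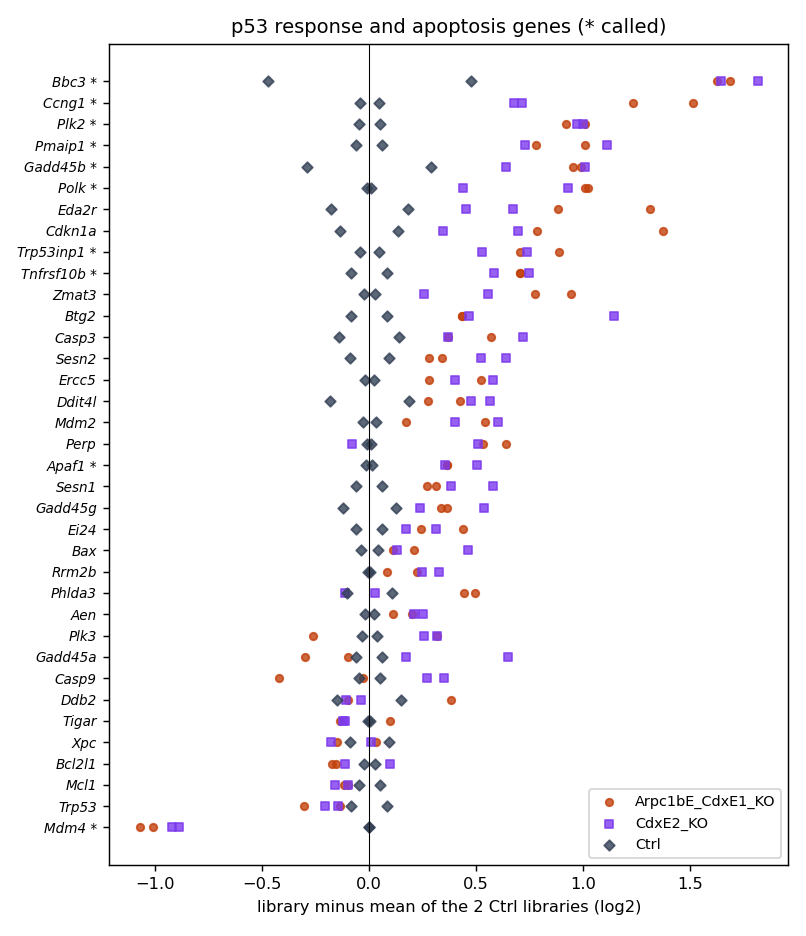
The 36 tested genes of the p53 response and apoptosis list, each library minus the mean of the 2 Ctrl libraries (log2, x axis), with circles for Arpc1bE_CdxE1_KO, squares for CdxE2_KO and diamonds for Ctrl, and asterisks at called genes. Of the 36 genes 30 lie to the right on average, Bbc3 at 1.69, and Mdm4 at the bottom lies at -0.97.

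Among lineage genes other than Cdx2, calls went both ways. Nanog (chromosome 6, 122707489 to 122714633) was called higher, with 5.21, 4.66, 4.63 and 4.84 in knockout libraries, against 4.16 and 3.67 in Ctrl (0.92, adjusted p = 0.0378). Nr5a2, an orphan nuclear receptor of the early embryo (chromosome 1, 136842571 to 136960448), fell, with 8.62, 8.70, 8.70 and 8.61, against 9.35 and 9.37 in Ctrl (-0.70, SE 0.07, adjusted p = 0.00219). Tead4, the DNA-binding partner of Yap, fell by 0.46 (adjusted p = 0.0378). Pou5f1 differed by -0.46 (adjusted p = 0.0775) and Gata6, a factor of the primitive endoderm, by -0.49 (0.0514), so neither passed. Gata3 differed by -0.14, and the keratins Krt8 and Krt18 by 0.34 and 0.22, with overlapping groups in all 3. Sox2 was under the filter on low values and was not tested. Nanog lost its call without each library but Arpc1bE_CdxE1_KO replicate 1, Tead4 likewise, and Nr5a2 without Ctrl replicate 2, with highest adjusted p of 0.304, 0.256 and 0.0525. As deposited Tead4 differed by -0.13 and was not called (adjusted p = 0.312).

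For the lists that follow, 2.24% of all tested genes were called higher and 2.77% lower, with a median of -0.04. Few calls in a short list cannot be told from these shares. Of 27 pluripotency and inner cell mass genes 2 were higher, Nanog and Rex2 (0.53), and 5 were lower, with a median of -0.22. Besides Nr5a2 these were the T-box factor Tbx3 (-0.61), the methyltransferase Carm1 (-0.60), Klf4 (-0.46) and the zinc finger factor Sall4 (-0.45). Of 17 trophectoderm genes 2 were lower, Cdx2 and Tead4, and 0 higher, with a median of -0.07. Of 24 genes of the Hippo pathway and its targets 3 were lower and 0 higher, with a median of -0.17. They are Tead4, the Tead cofactor Vgll4 (-0.85, adjusted p = 0.0176) and the kinase Lats2 (-0.49, adjusted p = 0.0378). Of 31 genes of the Arp2/3 complex and actin regulation 3 were lower and 0 higher, with a median of -0.18. Actg1, gamma-actin, was at 5.02 to 5.32 in knockout libraries, against 5.84 and 5.85 in Ctrl (-0.70, adjusted p = 0.012), beside Actb at -0.44 and the cross-linker Actn4 at -0.53. The polarity and junction list had Llgl1, of the basolateral Scribble group, alone of 26 lower (-0.54). Primitive endoderm (10 tested), ion and water transport (14) and BMP, Nodal and FGF signalling (32) had 0 called. Without Ctrl replicate 1 these lists together had 1 gene called, in the pluripotency list, and without Ctrl replicate 2 they had 0. Medians near -0.2 are smaller than the shift of the centring, 0.33, and as deposited they were positive for the pluripotency (0.10), Hippo (0.15) and actin (0.14) lists. The counts turned with them, to 9 higher and 1 lower for pluripotency, 8 higher and 1 lower for Hippo and 5 higher and 1 lower for actin.

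Lysosome and autophagy genes were called lower in 7 of 42 and higher in 1, with a median of -0.15. Over all tested genes 2.77% were called lower and 2.24% higher, with a median of -0.04. Grn, the precursor of granulins, was at 7.39, 7.78, 7.54 and 7.52 in knockout libraries, against 8.35 and 8.40 in Ctrl (-0.82, adjusted p = 0.00708). Ulk1, the kinase that starts autophagy, fell by 0.61 (0.0127) and Lamp1, a membrane protein of the lysosome, by 0.47 (0.0193). The sphingolipid enzyme relative Smpdl3a fell by 0.65, Atg9a by 0.46 and Psap and Wipi2 by 0.39. The protease gene Ctsl rose by 0.49 (0.0182). The counts were 0 lower without either Ctrl library and 2 lower without either CdxE2_KO library. They were 2 lower and 10 higher as deposited.

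In nuclear oxidative phosphorylation 6 of 76 genes were higher and 2 lower, with a median of 0.07. Over all tested genes the shares were 2.24% higher and 2.77% lower. Atp5k, a subunit of ATP synthase, rose by 1.12, Uqcrh, of complex III, by 0.94, Cox6b1, of complex IV, by 0.78 and Ndufb9, of complex I, by 0.68. Ndufs5, also of complex I, fell by 0.92 and Cox6a1 by 0.55. Without Ctrl replicate 1 none of these genes was called, and without Ctrl replicate 2 there was 1, while 30 were higher as deposited. Of 82 ribosomal proteins 3 were lower, Rpl26, Rpl34 (-0.76) and Rpl29 (-0.72), and 0 higher, a share near the 2.77% of all genes called lower. As deposited 29 were higher and 2 lower. Without Arpc1bE_CdxE1_KO replicate 1 the ribosomal counts were 18 lower and 4 higher. In the stress list Hmox1, heme oxygenase, rose by 1.26 and Ddit4, an inhibitor of mTORC1, by 0.59, and the chaperone Hsph1 fell by 0.52, of 32 tested. Of 34 oocyte-inherited transcripts 2 were higher, Npm2 (0.63) and the deadenylation factor Btg4 (0.54), and of 12 transcripts of the 2-cell stage 2 were lower, Pramef6 (-1.45) and Sp110 (-0.64). Slc16a1, the monocarboxylate transporter, rose by 0.90 (adjusted p = 0.00411) and Pgam1, of glycolysis, fell by 0.55, of 23 in that list. Higher and lower counts as deposited were 15 and 0 in the stress list, 15 and 0 in the oocyte list, 4 and 1 in the 2-cell list and 9 and 0 in the glycolysis list.

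Other lists had calls in both directions, or few or none. Over all tested genes 2.24% were called higher and 2.77% lower. Histone genes had 3 of 62 higher and 3 lower, with medians of 0.13 in Arpc1bE_CdxE1_KO and -0.38 in CdxE2_KO. Besides the 2 rises given above, Hist2h3c2 rose by 1.02, and Hist1h2ah (-1.05), Hist1h2ao (-1.12) and Hist1h2bj (-0.75) fell. The histone counts were 3 higher and 12 lower without Arpc1bE_CdxE1_KO replicate 1, 6 higher and 11 lower in the fit with 3 groups, and 12 higher and 2 lower as deposited. Splicing genes had Snrpd2 (0.68) and Snrpb2 (0.41) higher, and Sf3b4 (-0.68), Clk2 (-0.56) and Hnrnpa1 (-0.45) lower, of 52. Ribosome biogenesis had Gar1 and Nop16 (0.41) higher and Rcl1 (-0.36) and Ubtf, a factor of polymerase I, at -0.50 lower, of 59. Of 36 genes of DNA methylation and chromatin repression Ehmt2 (-0.41) and Cbx1 (-0.43) were lower. Maternal clearance factors had Btg4 higher and Pabpc4 (-0.52) lower, of 10, the cell cycle list Ccne2, cyclin E2, higher (0.58), of 38, and the proteasome list Psmd3 lower (-0.36), of 40. DNA replication (46 tested), sterol and fatty acid synthesis (27) and the interferon response (10) had 0 called by limma. As deposited, 19 DNA replication genes, 7 sterol genes and 2 interferon genes were higher and 0 lower. Higher and lower counts as deposited were 26 and 1 for splicing, 29 and 0 for ribosome biogenesis, 25 and 0 for the cell cycle, 18 and 0 for the proteasome and 13 and 0 for chromatin repression. Among imprinted genes Gnas (-0.43) and Xist (-0.98) were lower, of 25. Xist, which silences an X chromosome in female cells, was at 7.57, 7.18, 7.11 and 6.70 in knockout libraries, against 8.03 and 8.21 in Ctrl (adjusted p = 0.0378). Ddx3y, on the Y chromosome, was at 5.21 to 5.52, against 4.63 and 4.15 in Ctrl (0.97, adjusted p = 0.0127). The sex ratio of the embryos in a library was not given, and its part in these values was not tested. The genes named in this paragraph with an adjusted p lost their calls without at least 1 Ctrl library.

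Chromosome 5, which carries Cdx2 and Arpc1b, held a larger share of called lower genes than the other chromosomes together. Among genes with no close match, 48 of 563 on chromosome 5 were called lower and 2 higher (8.88%), against 188 lower and 116 higher of 8201 on other chromosomes (3.71%). The median difference was -0.14 on chromosome 5 and -0.04 elsewhere, and the next lowest median was -0.08, on chromosome 7. The medians of the 4 knockout libraries were -0.17 and -0.16 in Arpc1bE_CdxE1_KO and -0.11 and -0.13 in CdxE2_KO and in each library this was the lowest of the autosomes and the X chromosome. With the centring, the lower genes lay mostly in the distal part. From 110 Mb on, a bound set after the values were seen, 41 of 282 were called lower and 1 higher with a median of -0.19, and before it 7 of 281 were lower and 1 higher with a median of -0.08. Ulk1, Tbx3, Actb, Hsph1 and Cox6a1, named with their lists above, are among these 41, so their falls are counted in both places. The 4 knockdown libraries had distal medians of -0.05 to 0.01, set against Ctrl across tables.

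Next to Cdx2, 3 of its 10 neighbours were called lower, beside 2.77% of all tested genes. Mtif3, an initiation factor of mitochondrial translation, differed by -0.82 (adjusted p = 0.0219), Pan3, of a deadenylase, by -0.53 (0.0292), and the ubiquitin-like Ubl3 by -0.52 (0.0367). None of the 10 neighbours of Arpc1b was called over the pooled libraries by limma. Its neighbour and relative Arpc1a fell by 0.61 in Arpc1bE_CdxE1_KO (adjusted p = 0.0269), and its difference in CdxE2_KO was 0.06. Distal chromosome 5 is rich in GC, at a median of 54.1% of the transcript against 49.9% elsewhere, and GC-rich genes also had lower medians on the other chromosomes. When all these genes were cut into 5 equal bins of GC content, the distal genes had the lower median in each, at -0.09 for distal genes against 0.08 elsewhere in the lowest bin and -0.25 for distal genes against -0.15 elsewhere in the highest. The lowest bin held 13 distal genes and the next 21, and the part of GC content in the distal values was not tested. With libraries centred within bins of GC content, 29 distal genes were lower and the median was -0.14, against -0.05 off chromosome 5. The distal calls numbered 22 and 24 lower without CdxE2_KO replicate 1 or 2, 2 without Ctrl replicate 1 and 0 without Ctrl replicate 2, and the median then ran from -0.17 to -0.23. As deposited, without centring, the distal genes had 17 lower and 34 higher with a median of 0.14, against a median of 0.28 off chromosome 5.

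**Figure D5:**
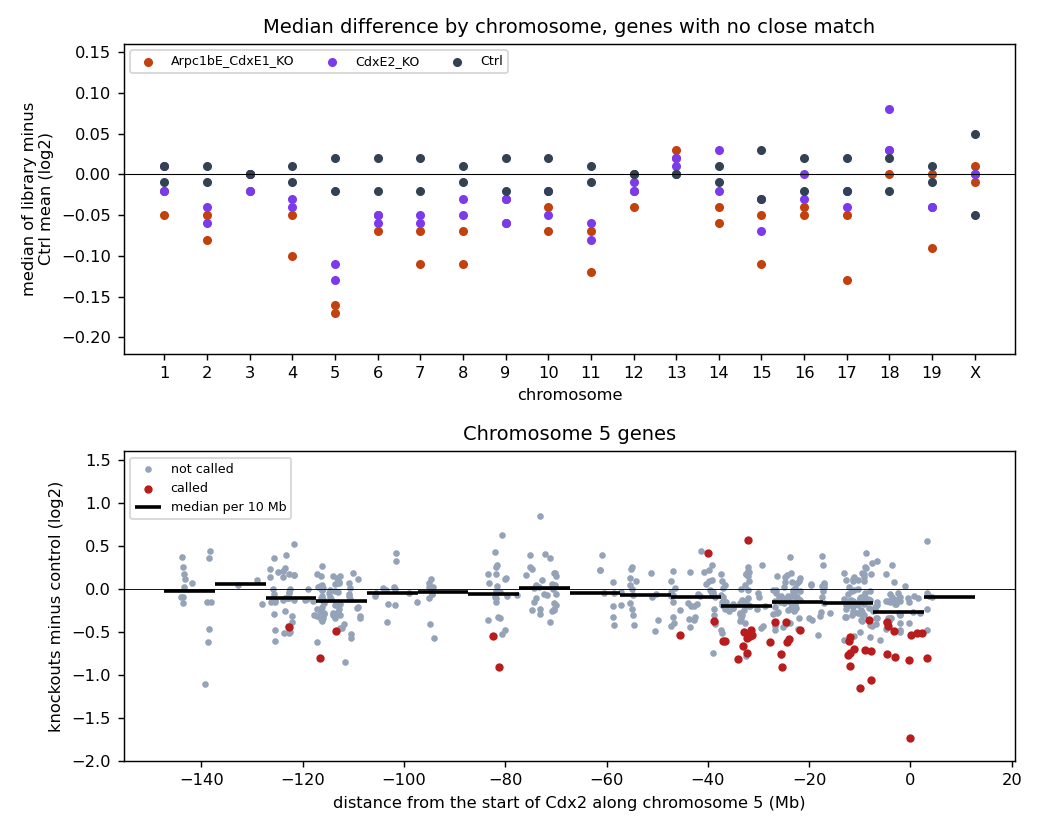
Upper panel, median over genes with no close match of each library minus the Ctrl mean (log2), by chromosome and group. Lower panel, difference of the 4 knockout libraries from Ctrl (log2) for chromosome 5 genes by distance from the start of Cdx2 (Mb), with called genes in red and black bars for medians of 10 Mb bins. Chromosome 5 has the lowest pooled median, -0.14, and 41 of its called lower genes lie in the distal part to the right.

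The knockouts differed from each other in few genes by limma. Of 10920 genes 5 were called between CdxE2_KO and Arpc1bE_CdxE1_KO (0.0458%), and 0 of these were among the 548 shared calls, while 1220 had an unadjusted p under 0.05. Besides Arpc1b (1.45, SE 0.12, adjusted p = 0.019) they were chosen after their values were seen. Lpar1, a receptor of lysophosphatidic acid, was at 2.15 and 1.79 in CdxE2_KO, against 4.20 and 4.32 in Arpc1bE_CdxE1_KO and 4.41 and 4.31 in Ctrl (-2.29, adjusted p = 0.00441). Lsm5, of the ring that binds U6 RNA, was at 5.44 and 5.31 in CdxE2_KO, against 3.67 and 3.57 in Arpc1bE_CdxE1_KO and 3.72 and 3.85 in Ctrl (1.75, adjusted p = 0.00441). Dpm1-adnp differed by 2.21 (adjusted p = 0.0432) and Dbf4, the activator of a replication kinase, by 0.77 (0.0481). So in Lpar1 and Lsm5 CdxE2_KO stood apart and in Arpc1b the other knockout did. The count was 14 without Arpc1bE_CdxE1_KO replicate 1, 141 without its replicate 2, 10 without CdxE2_KO replicate 1, 4 without its replicate 2 and 2 without either Ctrl library.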

How the data were processed

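Total RNA was measured in 8-cell embryos, and the table of the motif knockouts holds 1 log2 value per gene and library, deposited by the authors as log2 of an abundance whose kind is not named. Its zeros put the added constant at 1. The submitters' processing notes name StringTie 1.3.4, Cufflinks, HISAT2 2.1.0 and SAMtools 1.7 and the mm10 build, and per the labels' protocols a stranded total RNA kit was used and ribosomal cDNA removed once amplified. No read counts entered, so depth is unknown and no counting interval is given, and a gene listed at 0 can be a failed estimate.

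The members, gene lists, naming rule and tests were chosen with earlier results of these data known. Genes that reached 1 linear unit in 2 or more of the 6 libraries were kept, each library was centred on its median over them, and eBayes with trend in limma 3.58.1 (R 4.3.3) compared the 4 knockout libraries with the 2 Ctrl libraries. The Benjamini-Hochberg adjustment ran over all 10920 genes with a threshold of 0.05, and all adjusted p-values in the text are two-sided and from limma. A fit with 3 groups gave each knockout against Ctrl and the knockouts against each other. Genes named are Cdx2, Arpc1b, Tfap2c and Klf5, with 8 lineage genes. Added to them are the 12 largest rises and 12 largest falls among shared called genes whose higher side averaged at least 10 linear units, and, from each list with at least 2 called members, the 4 of lowest p. Symbols that begin with Gm, LOC, Mir, Snora, Snord, Scarna or Rnu or end in Rik, and those with -ps, were left out of the largest changes. Other genes named with values were chosen after these were seen. Lists are described by counts and medians, with no set test.

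Positions are from GENCODE M21 (mm10), where 23334 of 24421 symbols have 1 gene model, and promoters from RefSeq (GRCm38.p6). Close matches, a criterion set after seeing the data, are stretches of at least 95% identity over at least 20% of the longest transcript and 100 bases, found with minimap2 2.31-r1302, or overlapping genes. On simulated data for the pooled comparison (10920 genes, 200 changed) the fit recovered 71% of changes at a log2 of 1 and 94% at 2, and 2.94% of its calls were false. The simulation holds no shift of whole libraries and no difference between the knockouts, so its share of false calls need not hold for these data. Alternatives were other scalings, constants, filters and variance settings, a replicate block, each library left out, and, added after seeing the data, fits without close matches and with centring by GC content.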

Additional observations from a re-analysis of the deposited data

Results flagged for a closer look

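In the 4 knockout libraries, 1 library stood far from the other 3 in 4 of 84 named genes examined, where chance flags about 1 in 20 groups. Gata6 was at 6.83 in Arpc1bE_CdxE1_KO replicate 2, Hnrnpa3 at 4.24 in Arpc1bE_CdxE1_KO replicate 1, Tmem38b at 5.24 and Vaultrc5 at 6.51 in that same library, all as centred log2 levels.

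The knockouts differed from each other by limma in Arpc1b (1.45), Dbf4 (0.77), Dpm1-adnp (2.21), Lpar1 (-2.29) and Lsm5 (1.75), given as CdxE2_KO minus Arpc1bE_CdxE1_KO on the log2 scale.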

How the results depend on the processing

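The pooled count of 548 calls was 3284 as deposited (3283 on 1 side of Ctrl in all 4 knockout libraries), 901 with an added constant of 5, 5982 without the filter (1204 higher, 4778 lower), 846 (836) with 3 groups, 278 without the trend and 355 with centring within GC bins. The added constant understates low genes, and with 2 Ctrl libraries the fit rests on few residual degrees of freedom. The count of at least 2-fold genes, 95, was 165 as deposited and 17 with only genes without close matches. Between the knockouts, 5 calls became 2 without the filter, 2 without the trend, 3 with robust variance and 2 without close matches. Leaving out 1 library each gave 76 to 984 pooled and shared calls, 68 to 104 of at least 2-fold and 2 to 141 between the knockouts. The cause of these shifts was not tested. A replicate block gave 351 pooled calls (350 shared), 335 of them among the 548, but replicate numbers share only a number, since the deviations of same-numbered libraries correlated at -0.01 to 0.05. Quantile (531), loess (509) and library sum scaling (559), a constant of 0.25 (590), a filter at 5 units (730), robust variance (576) and leaving out close matches (446) stayed within 1.5 times. Of the values of named genes under all alternatives, 1362 kept their side of the threshold, 263 lost it, 16 gained it and 0 changed sign once called.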
